A study of Mus musculus with 25 samples.

Results

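The genes that carry hematopoietic stem cells from G1 into S phase were described in HSLAM cells with and without *Znf143*: the D-type cyclins *Ccnd1*, *Ccnd2* and *Ccnd3*, their kinases *Cdk4* and *Cdk6*, the E-type cyclins *Ccne1* and *Ccne2*, their kinase *Cdk2*, and the inhibitors *Cdkn1b* (p27Kip1) and *Cdkn2c* (p18Ink4c). These 10 genes were chosen by name, with earlier results of these data known. All 10 were found among the 23116 genes of the expression table. HSLAM cells are LSK+ CD150+ CD48- bone marrow cells, a sorted population rich in long-term stem cells.

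D-type cyclins are made in response to growth signals, and with CDK4 or CDK6 they begin the phosphorylation of the retinoblastoma proteins. E-type cyclins then activate CDK2, which completes that step and opens S phase. INK4 proteins such as p18Ink4c bind CDK4 and CDK6 themselves, whereas p27Kip1 binds cyclin-CDK complexes and above all restrains cyclin E-CDK2. Most adult stem cells rest outside the cycle, and D cyclins, CDK6 and these inhibitors are known to set how readily they leave rest.

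RNA-seq was performed on cells of adult male C57BL/6 mice, with 3 libraries of the genotype *Znf143 f/f* x *Rosa26ERT2-Cre-* (here *Znf143 f/f*) and 3 of the genotype *Znf143 f/f* x *Rosa26ERT2-Cre+* (here *Znf143-/-*). Both groups carried loxP sites around exon 1 of *Znf143* and received the same tamoxifen treatment, so they differed in the Cre, which is expressed in all tissues and not in blood cells alone. The labels of the knockout libraries name CTCF as the deleted gene, whereas the study's methods name *Znf143*. *Zfp143*, the symbol of *Znf143* in the table, was at 3.09, 4.45 and 3.68 rescaled FPKM in the *Znf143 f/f* libraries and at 0.156, 0.299 and 0.272 in the *Znf143-/-* libraries, a log2 fold change of -3.50 ± 0.24 (SE, limma adjusted p = 0.001). *Ctcf*, looked up because of that label, was at 31.2 ± 1.34 and 28.6 ± 2.87 (SD, n = 3 each) rescaled FPKM (limma adjusted p = 0.468). These levels are over the whole gene, and exon 1 alone was not analysed here.

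FPKM are fragments per kilobase of gene, scaled to the size of the library. They were rescaled here so that the typical gene had the same level in each library, because the third *Znf143-/-* library had been divided by the total of the second in place of its own. Each library held 38643255 to 57895793 fragments on genes, and the scarcest of the 10 genes, *Cdkn1b*, had 352 to 652. The libraries were not equally far apart. Between the first and the third *Znf143 f/f* libraries, and between the second and the third *Znf143-/-* libraries, fragments of genes with 20 to 199 fragments differed by 1.70 and 1.68 times the variance of sampling alone. In the other 13 pairs this ratio was between 7.15 and 12.3. The 2 close pairs differed by more than sampling noise and were kept as separate libraries, but the tests were also run with each close pair averaged, which leaves 2 against 2. Over all genes tested, 1154 were called at a limma adjusted p under 0.05, 223 to 370 without 1 library of a close pair, 2240 with the second *Znf143 f/f* library left out and 2108 with the first *Znf143-/-* library left out. The labels do not say how the close libraries were made or whether they came from separate mice. Every n therefore counts libraries, and the p-values measure the spread between libraries, which may be technical in part.

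**Figure D1:**
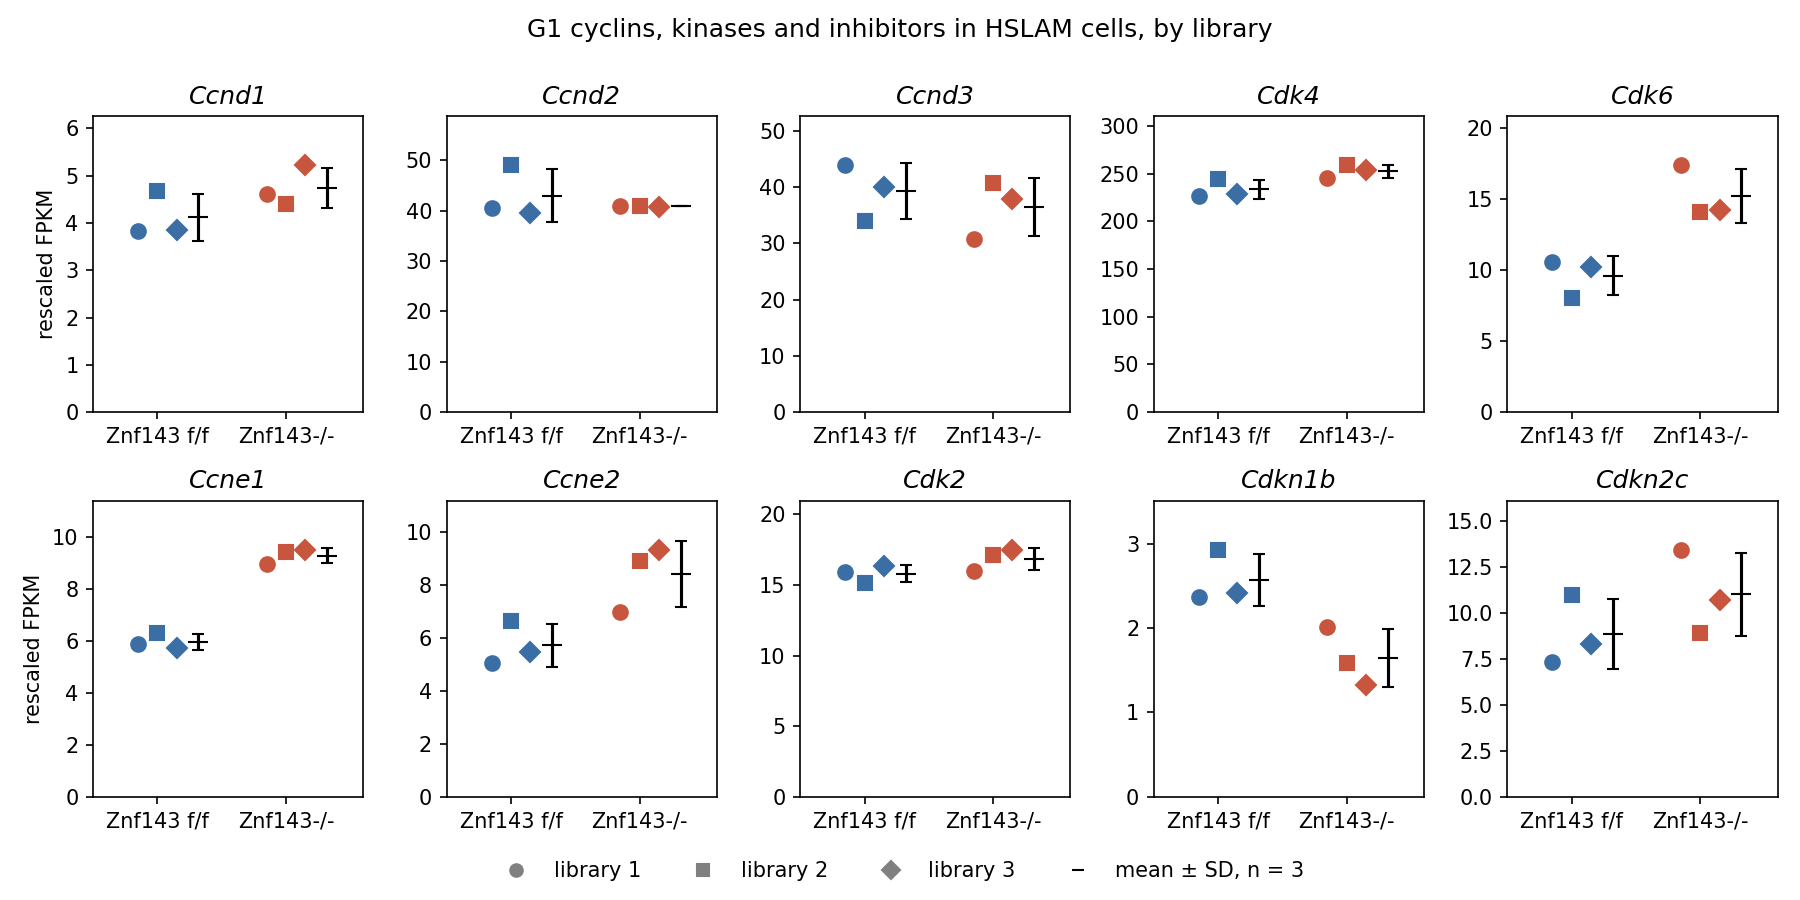
Rescaled FPKM (vertical axes, each starting at 0) of the 10 genes in 3 *Znf143 f/f* (blue) and 3 *Znf143-/-* (red) libraries; symbols mark library 1, 2 or 3, and black bars the mean ± SD. *Cdk6*, *Ccne1*, *Ccne2* and *Cdk4* lay higher in every *Znf143-/-* library, *Cdkn1b* lay lower, and the groups overlapped for the other 5 genes.

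Promoter sequences are shown for *Ccne1* and *Cdk6*, the 2 genes whose levels passed the test below, and for *Cdkn1b*, the 1 gene that lay lower in every *Znf143-/-* library. They are the bases upstream of the RefSeq start that lie in no annotated exon, 5′ to 3′, on GRCm38.p6. Capitals mark matches, on either strand, to the E2F-type motifs TTTNNCGC and TTCCCGC, the CCAAT box, the GC box GGGCGG, the core ZNF143-type motif TCCCAGNA and its long form, ACTACA with TCCCAG beginning 2 bases after it.
*Ccne1*, chr7:38107535-38107740, minus strand: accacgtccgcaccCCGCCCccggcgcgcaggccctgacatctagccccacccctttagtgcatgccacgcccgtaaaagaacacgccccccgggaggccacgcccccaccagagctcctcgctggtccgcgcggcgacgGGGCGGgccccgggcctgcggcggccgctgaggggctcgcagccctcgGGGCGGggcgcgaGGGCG
*Cdk6*, chr5:3343643-3343731, plus strand: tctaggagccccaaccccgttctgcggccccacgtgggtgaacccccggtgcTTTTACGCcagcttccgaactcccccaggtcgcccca
*Cdk6*, chr5:3343789-3343892, plus strand: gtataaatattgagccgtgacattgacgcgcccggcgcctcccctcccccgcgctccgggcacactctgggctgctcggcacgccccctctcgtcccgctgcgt
*Cdkn1b*, chr6:134920151-134920400, plus strand: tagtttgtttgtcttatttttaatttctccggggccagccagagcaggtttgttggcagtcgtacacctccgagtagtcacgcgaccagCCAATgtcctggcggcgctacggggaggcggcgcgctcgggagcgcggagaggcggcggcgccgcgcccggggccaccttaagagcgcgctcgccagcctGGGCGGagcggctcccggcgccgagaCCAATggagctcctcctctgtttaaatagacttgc
The capitals in *Ccne1* are GC boxes, the last of which runs on into an annotated exon. The single match in *Cdk6* is of the E2F type, TTTTACGC at -198 from the start. *Cdkn1b* held CCAAT at -161 and -35 and a GC box at -61. No ZNF143-type match, core or long, was present in the 9 windows of 250 bases that RefSeq starts gave for 7 of the 10 genes. Of all 32851 such windows, 8.60% held the core ZNF143-type motif, 0.95% the long form, 4.28% TTTNNCGC, 3.82% TTCCCGC, 33.8% CCAAT and 32.7% a GC box. Of the 9 windows of these genes, 2 held TTTNNCGC, 2 TTCCCGC, 3 CCAAT and 7 a GC box. E2F-type matches also lay upstream of *Cdk2* and *Cdkn2c*, which did not pass the test. *Ccnd1*, *Ccnd2* and *Ccne2* had no entry. Such matches are descriptions of sequence and not of binding.

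*Ccne1* and *Cdk6* rose in *Znf143-/-* cells, each to about 1.5 to 1.6 times its level in *Znf143 f/f* cells. The other 8 genes did not pass the test. In bulk RNA, a change in the share of cells of a type and a change in RNA per cell cannot be told apart. The progenitor markers *Cd48* and *Flt3* were higher in the same libraries (values below). Thus 2 of 10 genes were called at a limma adjusted p under 0.05, beside 5.98% of the 19293 genes tested across the genome. Both were higher, beside 3.0% of all genes called higher and 2.99% called lower. The groups did not overlap for 5 of the 10 genes, beside 30.7% of all genes tested. Of these, 4 were higher (15.4% of all genes) and 1 was lower (15.3%). Because the genes were chosen with earlier results of these data known, these shares are given as a description only. With the close pairs averaged, 0 of the 10 were called by limma, beside 0.244% of all genes. There 2 of the 10 had an unadjusted p under 0.05. The share of all genes under that unadjusted threshold was not counted, so this and later unadjusted counts have no share beside them. The 10 genes had a median log2 fold change of 0.16, and all genes tested one of 0.01.

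**Figure D2:**
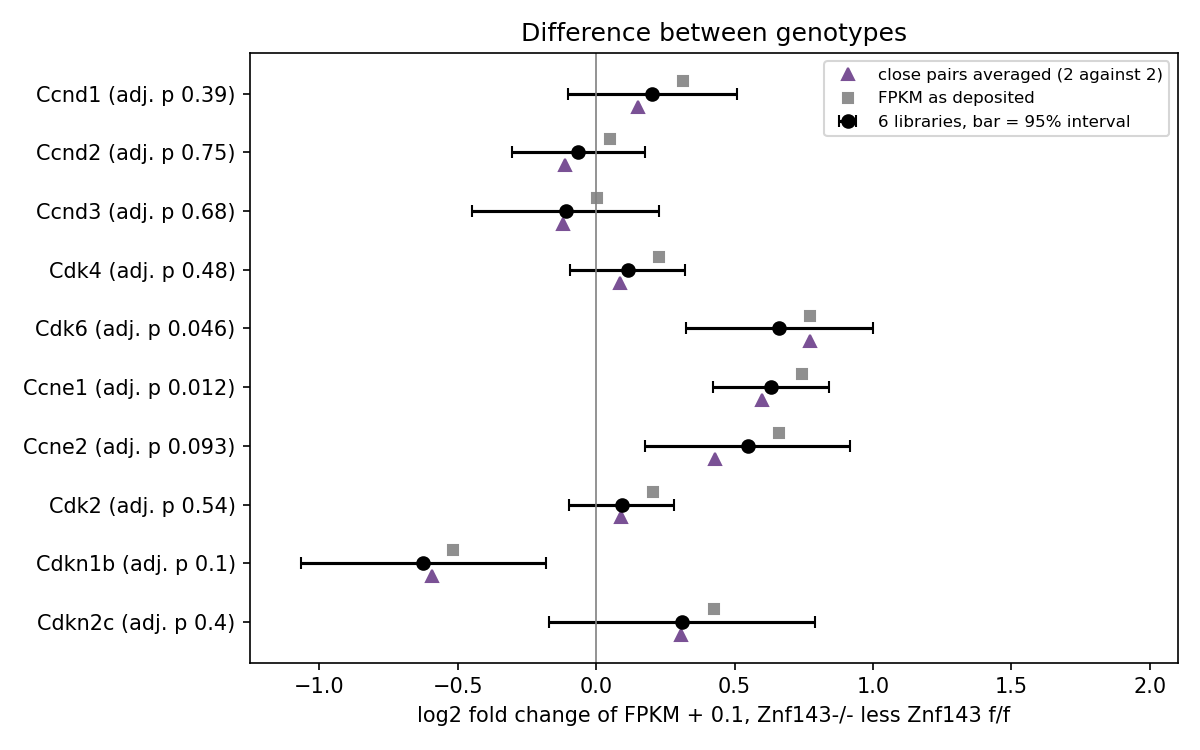
Log2 fold change of rescaled FPKM + 0.1, *Znf143-/-* less *Znf143 f/f*, for each gene (horizontal axis), with its 95% interval from 6 libraries (black), the value with the close pairs averaged (triangles) and the value from FPKM as deposited (squares). The intervals of *Ccne1*, *Cdk6*, *Ccne2* and *Cdkn1b* did not reach 0 before adjustment, and values as deposited sit to the right by about 0.11.

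The levels spanned a wide range. Per length, *Cdk4* was the most abundant of the 10 transcripts in both genotypes, at 233 ± 9.82 rescaled FPKM in *Znf143 f/f* and 253 ± 6.86 in *Znf143-/-* (SD, n = 3 each). *Ccnd2* and *Ccnd3* came next at about 36 to 43, followed by *Cdk2*, *Cdk6*, *Cdkn2c*, *Ccne1*, *Ccne2*, *Ccnd1* and *Cdkn1b*, in this order in both genotypes. In *Znf143 f/f* cells the ranges overlapped between the neighbours *Ccnd2* and *Ccnd3*, *Cdk6* and *Cdkn2c*, and *Ccne1* and *Ccne2*. In *Znf143-/-* cells they overlapped between *Cdk2* and *Cdk6*, between *Cdkn2c* and *Ccne1*, and between *Ccne1* and *Ccne2*, whereas *Cdk6* was above *Cdkn2c* in every library.

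The D-type cyclins did not pass the test. *Ccnd2* (chr6:127125162-127152193, minus strand, GRCm38), the D cyclin known for its role downstream of cytokine and PI3K signals, was at 40.5, 49.0 and 39.5 rescaled FPKM in *Znf143 f/f* and at 40.9, 41.0 and 40.8 in *Znf143-/-* libraries. The *Znf143-/-* libraries were nearly equal and lay inside the range of the controls, whose second library was the highest. On the log2 scale the difference was -0.06 ± 0.10 (SE, 95% interval -0.31 to 0.18, limma adjusted p = 0.748).

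*Ccnd3* (chr17:47505051-47599691, plus strand), the D cyclin known for its role in lymphoid and erythroid precursors, was at 43.8, 34.0 and 39.9 in *Znf143 f/f* and 30.7, 40.6 and 37.9 rescaled FPKM in *Znf143-/-* libraries. Each genotype held 1 low library, the second *Znf143 f/f* and the first *Znf143-/-*, and the groups overlapped. Its log2 fold change was -0.11 ± 0.14 (SE, limma adjusted p = 0.684). The signs of both *Ccnd2* and *Ccnd3* turned with the scaling, to 0.05 and 0.003 in FPKM as deposited, where the median of all genes tested was 0.11 and not 0.01. They also turned when a library was left out, as *Ccnd2* was at 0.03 when the second *Znf143 f/f* was dropped, and *Ccnd3* at 0.01 without the first *Znf143-/-* library. The pseudogene *Ccnd3-ps*, which shares sequence with *Ccnd3*, was at 0.509 ± 0.21 and 0.213 ± 0.07 rescaled FPKM (SD, n = 3 each), and the log2 fold change of the summed pair was -0.11 as well.

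*Ccnd1* (chr7:144929931-144939925, minus strand), the D cyclin most used outside blood, was the scarcest D cyclin, at 3.83, 4.68 and 3.85 in *Znf143 f/f* and 4.62, 4.39 and 5.22 rescaled FPKM in *Znf143-/-* libraries. The second *Znf143 f/f* library lay among the *Znf143-/-* values. The log2 fold change was 0.20 ± 0.13 (SE, 95% interval -0.10 to 0.51, limma adjusted p = 0.388), and 0.13 without the third *Znf143-/-* library.

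Of the summed FPKM of the 3 D cyclins, *Ccnd2* made up 49.7% ± 5.37 in *Znf143 f/f* and 49.997% ± 3.24 in *Znf143-/-* libraries (SD, n = 3 each). *Ccnd3* made up 45.5% ± 5.88 and 44.2% ± 3.59, and *Ccnd1* 4.77% ± 0.52 and 5.80% ± 0.60. The sum itself was 86.3 ± 2.69 and 82.0 ± 5.12 rescaled FPKM, so the genotypes differed by less than the range within *Znf143-/-* libraries.

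Of the kinases of the D cyclins, *Cdk6* passed the test and *Cdk4* did not. *Cdk6* (chr5:3341485-3531008, plus strand), the kinase known for its role in the exit of blood stem cells from rest, rose in *Znf143-/-* cells. It was at 10.6, 8.06 and 10.2 rescaled FPKM in *Znf143 f/f* and at 17.4, 14.1 and 14.2 in *Znf143-/-* libraries. The groups did not overlap, the second *Znf143 f/f* library was the lowest of all and the first *Znf143-/-* library the highest. The fold change was 1.58 (95% interval 1.25 to 2.00), or 0.66 ± 0.14 on the log2 scale (SE, limma adjusted p = 0.0459). This call sat at the threshold: the adjusted p was 0.0533 in FPKM as deposited and 0.287 with the close pairs averaged, at log2 fold changes of 0.77 and 0.77. Without single libraries the limma adjusted p was 0.0998 and 0.134 (the first and the third *Znf143 f/f*) and 0.0589, 0.11 and 0.148 (the first, the second and the third *Znf143-/-*), and it stayed under the threshold, at 0.0467, when the second *Znf143 f/f* was left out.

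*Cdk4* (chr10:127063534-127067920, plus strand), the other D cyclin kinase, was at 227, 245 and 229 in *Znf143 f/f* and 245, 259 and 254 rescaled FPKM in *Znf143-/-* libraries. Each *Znf143-/-* library was above each control, the closest by less than 1 FPKM. On the log2 scale the difference was 0.11 ± 0.09 (SE, 95% interval -0.09 to 0.32, limma adjusted p = 0.478). The share of *Cdk6* in the summed FPKM of both kinases was 4.46%, 3.19% and 4.27% in *Znf143 f/f* and 6.62%, 5.17% and 5.30% in *Znf143-/-* libraries. *Cdk4* thus remained the main transcript of the pair in every library.

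The E-type cyclins lay higher in *Znf143-/-* cells, and *Ccne1* passed the test. *Ccne1* (chr7:38097984-38107534, minus strand) was at 5.87, 6.29 and 5.71 rescaled FPKM in *Znf143 f/f* and at 8.94, 9.40 and 9.49 in *Znf143-/-* libraries. The libraries within each genotype were close to each other, and the groups were well apart. The fold change was 1.55 (95% interval 1.34 to 1.79), or 0.63 ± 0.09 on the log2 scale (SE, limma adjusted p = 0.0125). In FPKM as deposited it was 0.74 with an adjusted p of 0.0479, and with the close pairs averaged 0.60 with an adjusted p of 0.328. Leaving out 1 library of a close pair ended the call in each case, with a limma adjusted p of 0.0677 and 0.0803 without the first and the third *Znf143 f/f* libraries and of 0.0688 and 0.0918 without the second and the third *Znf143-/-* libraries. It held at 0.0113 when the second *Znf143 f/f* library was left out and at 0.0149 without the first *Znf143-/-* library.

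*Ccne2* (chr4:11191351-11204779, plus strand), the second E-type cyclin, was at 5.04, 6.63 and 5.47 in *Znf143 f/f* and 6.98, 8.92 and 9.31 rescaled FPKM in *Znf143-/-* libraries. The second *Znf143 f/f* and the first *Znf143-/-* library came close to each other without overlap. Its log2 fold change was 0.55 ± 0.16 (SE, limma adjusted p = 0.0931), and 0.67 with an adjusted p of 0.04 without the first *Znf143-/-* library. The summed E cyclins were at 11.7 ± 1.10 rescaled FPKM in *Znf143 f/f* and 17.7 ± 1.54 in *Znf143-/-* libraries (SD, n = 3 each).

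*Cdk2* (chr10:128697939-128705031, minus strand), the partner of both E cyclins, was at 15.9, 15.2 and 16.3 in *Znf143 f/f* and 16.0, 17.1 and 17.5 rescaled FPKM in *Znf143-/-* libraries. The first *Znf143-/-* library lay among the controls. The log2 fold change was 0.09 ± 0.08 (SE, 95% interval -0.10 to 0.28, limma adjusted p = 0.537), so a change of the size of *Ccne1* lay outside its interval.

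The inhibitors lay in opposite directions, and neither passed the test. *Cdkn1b* (chr6:134920401-134925513, plus strand) was at 2.36, 2.92 and 2.41 rescaled FPKM in *Znf143 f/f* and at 2.02, 1.59 and 1.33 in *Znf143-/-* libraries. The groups did not overlap, and the first *Znf143-/-* library was the closest to the controls. The *Znf143-/-* mean was 64.1% of that of *Znf143 f/f*, at a log2 fold change of -0.62 ± 0.19 (SE, limma adjusted p = 0.101), and the value was -0.77 with an adjusted p of 0.0412 without the first *Znf143-/-* library.

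*Cdkn2c* (chr4:109660876-109667189, minus strand) was at 7.31, 11.0 and 8.29 in *Znf143 f/f* and 13.4, 8.90 and 10.7 rescaled FPKM in *Znf143-/-* libraries. The groups overlapped widely, the second *Znf143 f/f* library being above 2 of the *Znf143-/-* libraries. On the log2 scale the difference was 0.31 ± 0.20 (SE, limma adjusted p = 0.398), with an interval from -0.17 to 0.79 that holds both no change and a rise as large as that of *Ccne1*. The difference was 0.16 without the first *Znf143-/-* library, and 0.18 or 0.47 when the first or the second *Znf143 f/f* was left out.

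The library kit does not mark strand, so reads from exons that overlap a gene on the other strand cannot be told apart. *Cdk4* shares 641 exon bases with *Tspan31*, *Ccne2* 609 with *Ints8*, *Cdk6* 368 with *Gm17590* and *Ccnd3* 361 with *Bysl*. *Ccnd1* shares 1100 with LTO1, *Ccnd2* 368 with *9330179D12Rik* and 372 with *Gm43126*, and *Cdk2* 34 with *Pmel*. *Ccne1*, *Cdkn1b* and *Cdkn2c* share none. Means over the libraries were 41.6 rescaled FPKM for *Tspan31*, 12.7 for *Bysl*, 2.58 for *Ints8* and 1.23 for *Pmel*. They were 0.306 for *Gm17590* and 0.153 for *9330179D12Rik*, and no level was found by the symbols LTO1 and *Gm43126*. The part of these genes in the levels above was not tested. Stretches of 76 bases, the read length, were shared with other genes in 0.371% of those of *Ccnd3* and 0.229% of those of *Cdk6*, and in none of those of the other 8 genes.

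Ratios between these genes within a library hardly depend on its scaling. For 3 against 3 libraries the smallest p that an exact permutation test allows is 0.1, so no ratio could pass 0.05, and 10 ratios were compared. The summed D cyclins exceeded the summed E cyclins 8.08, 6.78 and 7.44 times in *Znf143 f/f* and 4.79, 4.69 and 4.46 times in *Znf143-/-* libraries. All *Znf143-/-* ratios lay below all controls, a difference of -0.67 on the log2 scale (exact permutation p = 0.1, two-sided, adjusted p = 0.2).

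The ratio of *Cdk6* to *Cdk4* also separated the groups, with a log2 difference of 0.55, as did *Ccnd1* to *Ccnd2* at 0.27. *Cdkn1b* was lower relative to *Cdkn2c* by -0.94 and relative to *Cdk2* by -0.72 on the log2 scale, again with no overlap. These 4 ratios had the same exact permutation p of 0.1 (adjusted p = 0.2). Of the ratios that separated the groups, only *Ccnd1* to *Ccnd2* held no gene whose own level did so. The others are therefore not independent of the single-gene results, and ratios of other genes were not compared. The groups overlapped for the other 5 ratios, among them *Ccne1* to *Ccne2* at a difference of 0.08 and *Ccnd2* to *Ccnd3* at 0.05. The level of *Ccne1* was between 0.949 and 1.28 times that of *Ccne2* in each library.

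**Figure D3:**
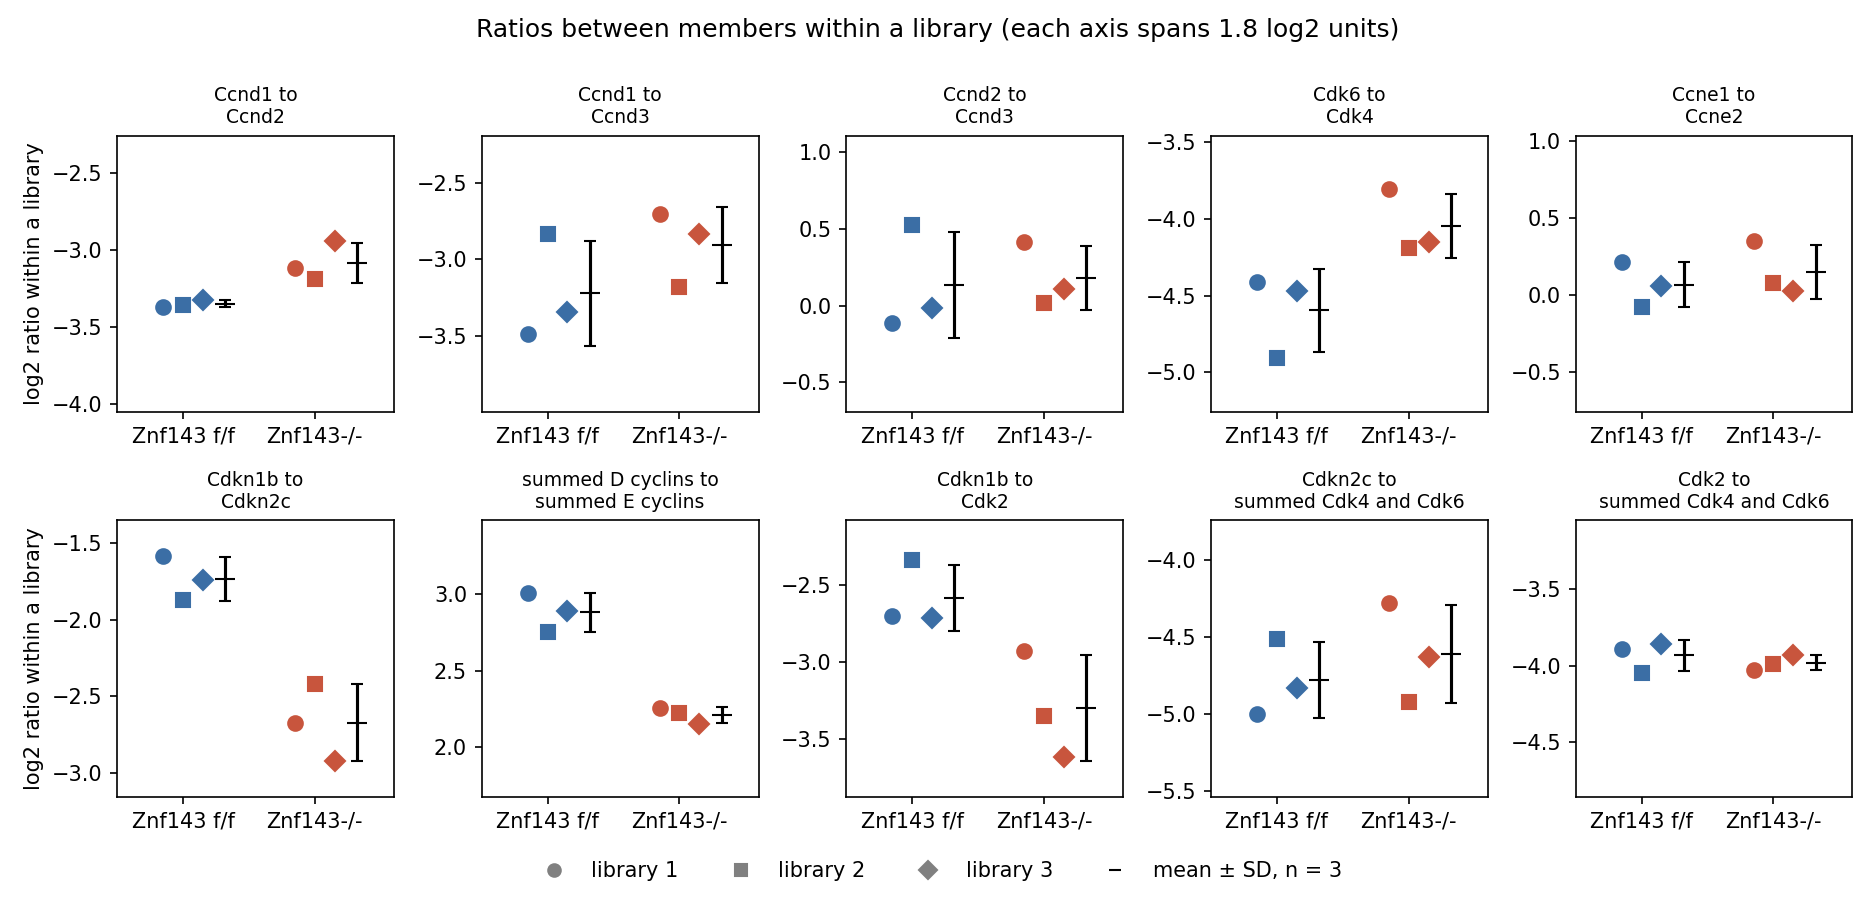
Log2 ratios of rescaled FPKM + 0.1 between the named genes within each library (vertical axes, all spanning the same width), by genotype, with library 1, 2 or 3 by symbol and the mean ± SD in black. The groups do not overlap for 5 of the 10 ratios, and the summed D to summed E cyclin ratio is lower in each *Znf143-/-* library.

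Other genes of the pathway were read from lists by role. The counts of calls in each list stand beside 5.98% of all genes tested, called at the same threshold. Of the other CDK inhibitors, 4 of 6 could be tested and 1 changed: *Cdkn1a* (p21Cip1), an inhibitor of CDK2 and a well known target of p53, rose from 18.0, 16.8 and 17.3 to 33.02, 30.9 and 30.7 rescaled FPKM. All *Znf143-/-* libraries were well above all controls (log2 fold change 0.86 ± 0.08 SE, limma adjusted p = 0.00252, or 0.131 with the close pairs averaged). *Cdkn1c*, *Cdkn2d* and *Cdkn3* did not pass, and *Cdkn2b* was too low to test. *Cdkn2a* was not found by that symbol among the genes of the expression table.

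Of the 13 pocket proteins and E2F factors, which the cyclin-CDK complexes act on, 0 were called by limma, with or without voom, and 2 had an unadjusted p under 0.05. The smallest p, unadjusted 0.00873, was that of *E2f4*, a mainly repressive E2F, at 40.9 ± 5.55 in *Znf143 f/f* and 27.7 ± 4.25 rescaled FPKM in *Znf143-/-* libraries (SD, n = 3 each, log2 fold change -0.56, limma adjusted p = 0.0837). The list's median log2 fold change was 0.13, beside 0.01 over all genes tested. The difference between these medians, 0.12, depended on single libraries: it was 0.05 without the second library of either genotype and 0.22 or 0.20 without the first *Znf143-/-* or the first *Znf143 f/f* library.

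Of the 23 genes of cyclin-CDK activation and turnover, 1 was called. *Skp2*, the F-box protein that marks p27Kip1 for breakdown, fell from 1.76, 2.30 and 2.03 to 0.745, 0.958 and 0.964 rescaled FPKM. Each *Znf143-/-* library was below each control (log2 fold change -1.11 ± 0.18 SE, limma adjusted p = 0.019, or 0.245 with the close pairs averaged). Without the first or the third *Znf143 f/f* or the second or the third *Znf143-/-* library its adjusted p was 0.0569, 0.0963, 0.0688 and 0.0864. The list's median log2 fold change was -0.005, and less that of all genes it changed sign with the library left out (-0.06 to 0.04).

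Of the 26 S phase genes, 23 had a positive log2 fold change (50.7% of all genes tested had one), with a median of 0.13, and 1 was called. Less the median of all genes this was 0.12, but 0.05 when the second *Znf143 f/f* was left out, and 0.19 to 0.20 without the first or the third *Znf143 f/f* or the first *Znf143-/-* library. *Pcna*, the sliding clamp of DNA replication, rose from 103, 111 and 107 to 132, 141 and 138 rescaled FPKM. Its groups did not overlap, and its log2 fold change was 0.36 ± 0.08 (SE, limma adjusted p = 0.0492, or 0.613 with the close pairs averaged). Without the first or the third *Znf143 f/f* or the second or the third *Znf143-/-* library its adjusted p was 0.187, 0.2, 0.181 and 0.22. Of the 21 G2 and M phase genes tested, 0 were called by limma, with or without voom, and 1 had an unadjusted p under 0.05. This p, 0.041, was that of *Cdk1*, the mitotic kinase, at 35.1 ± 2.56 in *Znf143 f/f* and 40.6 ± 1.27 rescaled FPKM in *Znf143-/-* libraries (SD, n = 3 each, log2 fold change 0.21, limma adjusted p = 0.186).

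**Figure D4:**
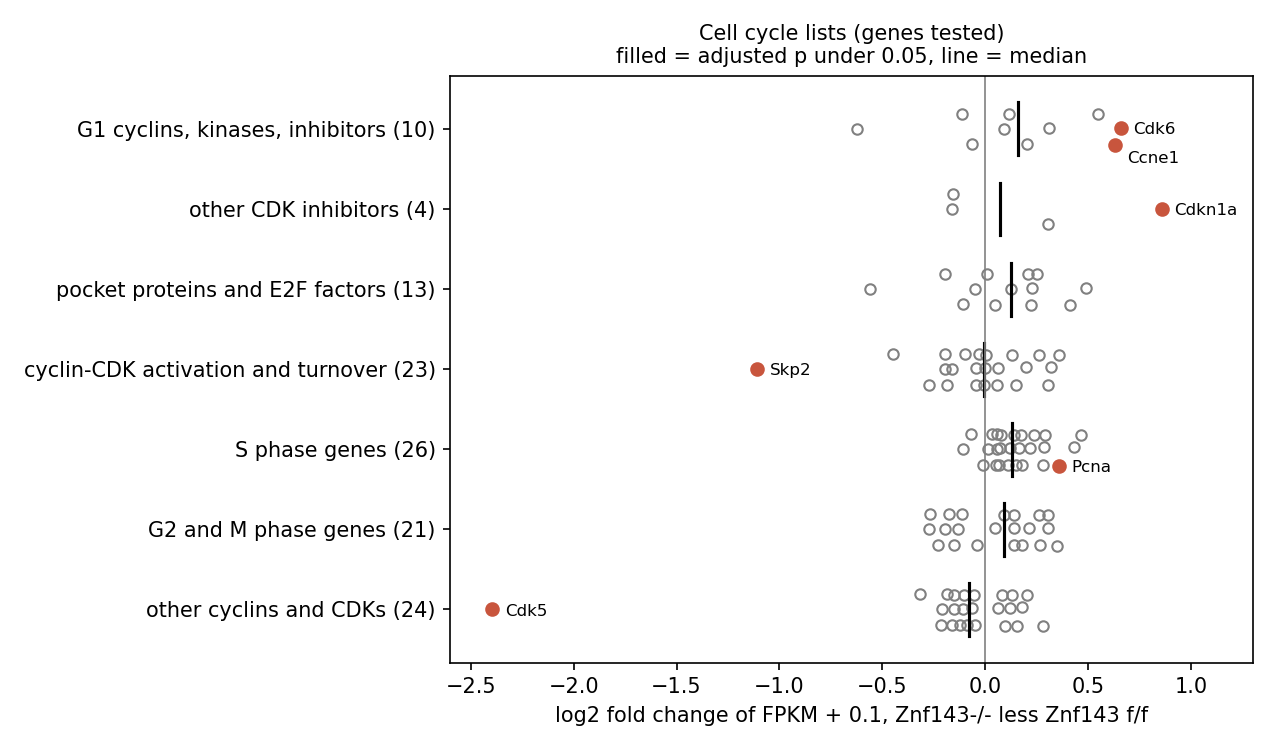
Log2 fold change, *Znf143-/-* less *Znf143 f/f* (horizontal axis), of each gene tested in the 7 cell cycle lists, with the number of genes in brackets; filled points passed an adjusted p of 0.05 and black lines are list medians. List medians lie between -0.08 and 0.16, and 6 genes passed in all. Over all genes tested, 5.98% passed.

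The sorted population also differed in markers of other cells. *Cd48*, whose protein the sort excludes, was at 9.73, 11.1 and 9.61 in *Znf143 f/f* and 19.7, 20.5 and 19.8 rescaled FPKM in *Znf143-/-* libraries (limma adjusted p = 0.00307). *Flt3*, a receptor of multipotent progenitors, rose from 5.42, 4.99 and 5.17 to 16.1, 15.6 and 15.8, whereas *Cd34* was at 29.3 to 31.7 in all libraries. The summed level of these 3 progenitor markers was 44.4 to 47.9 in *Znf143 f/f* and 65.3 to 67.2 rescaled FPKM in *Znf143-/-* libraries. Of 12 stem cell markers, all present, *Ly6a* rose, *Mecom* fell and 10 did not pass, with sums of 511 to 572 and 789 to 837, with *Ly6a* the largest part in each library. The log2 fold change was positive for 3 of these 12 markers and negative for the other 9, with a median of -0.34, so the higher sum was that of *Ly6a* and not of most of the list.

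Of 7 myeloid markers, 6 could be tested and *Elane* and *Ctsg* rose, from at most 0.809 to between 1.78 and 11.0 rescaled FPKM, with *Mpo* at 0.671 to 5.07 in all and *Fcgr3* at 0 in every *Znf143 f/f* library. All 6 tested myeloid markers had a positive log2 fold change, with a median of 1.36. The myeloid sum was 128 to 231 in *Znf143 f/f* and 166 to 293 in *Znf143-/-* libraries, most of it *Prtn3*. Of 7 erythroid markers *Hbb-bt* fell and 6 did not pass, with sums of 56.9 to 98.2 and 58.0 to 65.4. Of 5 megakaryocyte markers 0 passed (1 with voom, 3 at an unadjusted p under 0.05), with sums of 543 to 623 and 675 to 1016. The log2 fold change was positive for 4 of the 7 erythroid markers (median 0.0002) and for all 5 megakaryocyte markers (median 0.66). Of all genes tested, 50.7% had a positive one. No lymphoid marker was high enough to test, with sums of 0.032 to 0.199 and 0.213 to 0.264 and *Il7r* at 0 in every *Znf143 f/f* library. The 2 tested stroma and endothelium markers, *Col1a1* and *Kdr*, did not pass, and the sums of that list were 0.952 to 1.14 and 0.86 to 1.96. Without 1 library of a close pair the calls of *Mecom*, *Hbb-bt* and *Elane* were lost (limma adjusted p 0.0542 to 0.129), as was that of *Ctsg* without the second or the third *Znf143-/-* library (0.0551 and 0.066), whereas those of *Cd48*, *Flt3* and *Ly6a* held with any 1 library left out. With the close pairs averaged *Flt3* alone of these markers was called, at a limma adjusted p of 0.0404. There the p was 0.138 for *Cd48*, 0.144 for *Ly6a*, 0.408 for *Mecom*, 0.185 for *Elane*, 0.103 for *Ctsg* and 0.263 for *Hbb-bt*. In bulk RNA, cells of other types and marker RNA made by the sorted stem cells themselves cannot be told apart. The part of either in the levels of the G1 genes was not tested.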

How the data were processed

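HSLAM cells were measured by RNA-seq in 3 *Znf143 f/f* and 3 *Znf143-/-* libraries (SMART-Seq v4 with Nextera XT, paired-end, no strand marking). ChIP-seq and HiC samples of the series were not analysed here. Per the study's methods, TrimGalore, STAR (GRCm38) and FeatureCounts gave fragment counts per gene. They deposited 1 table with the FPKM of each library, fragments per kilobase of gene scaled to library size. Columns of the authors' DESeq2 comparison (mean count, log2 fold change, its error, statistic and p-values) were not used.

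Groups were taken from the sample labels. Fragments were recovered from FPKM times gene length (99.986% of 138696 values within 0.05 of a whole number). FPKM were divided by median-of-ratios size factors, since the third *Znf143-/-* library carried the divisor of the second. The 19293 genes with a mean of at least 0.1 entered a limma fit (version 3.58.1, R 4.3.3) of log2(FPKM + 0.1) (empirical Bayes with a variance trend, Benjamini-Hochberg adjustment over all genes). Fold changes on this scale understate those of low genes. Here n counts libraries, since the labels do not say that these came from separate mice. The study describes 3 biological replicates of each genotype and 3 pairs of littermates, without saying which libraries form a pair. Ratios were compared by exact two-sided permutation tests. The fit was tested on simulated data. The simulated libraries were drawn independently, without close pairs, and with the same spread beyond sampling for every gene. The changed genes were given larger folds than those of *Ccne1* and *Cdk6*. That test therefore does not cover these features of the data. Coordinates are from GENCODE M21 and promoters from RefSeq, 1-based. Python 3.11.15 was used.

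The genes and lists were chosen with earlier results of these data known. Named genes are the 10 members, *Zfp143*, the pseudogene of a member, per list up to 4 genes with the smallest adjusted p under 0.05 (or else the 1 with the smallest p), markers, and the 3 genes most like the member with the smallest adjusted p. Alternatives were other scalings, pseudocounts of 0.01 and 1, other filters, voom on recovered fragments, no trend, a replicate block, and each library left out. The averaging of close pairs was chosen after seeing the data.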

Additional observations from a re-analysis of the deposited data

How the results depend on the processing

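Depth limits *Cdkn1b* the most, with 352 to 652 fragments, and 3 libraries a group, of which 2 are close, limit every test. The fold changes of *Ccne1* and *Cdk6* stayed positive under every alternative run, at 0.56 to 0.74 and 0.54 to 0.77. The log2 fold change of *Ccne1* was 0.63 with a replicate block and 0.60 with the close pairs averaged, both past the threshold no longer, and 0.60 to 0.67 with 1 library left out. That of *Cdk6* lost its call as deposited (0.77), with its own total as divisor of the third *Znf143-/-* library (0.69), with a pseudocount of 0.01 (0.67), without the variance trend (0.66), with a replicate block (0.66) and with the close pairs averaged (0.77), and was 0.54 to 0.73 with 1 library left out. *Ccne2* was 0.46 to 0.67 and *Cdkn1b* -0.77 to -0.49 with 1 library left out, each called once. *Ccnd2* and *Ccnd3* turned from negative to 0.0495 and 0.00319 as deposited, and spanned -0.122 to 0.0331 and -0.21 to 0.00702 with 1 library left out.

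Of the 10 genes, 2 were called in the report, 1 as deposited, with the own total, with a pseudocount of 0.01 and without the trend, 0 with the block and with the close pairs averaged, and 0 to 3 with 1 library left out. Over all genes tested, 1154 were called (578 higher and 576 lower), 191 (85 and 106) with the block, 47 (18 and 29) with the close pairs averaged, and 223 to 2240 (84 to 1138 and 135 to 1102) with 1 library left out. As deposited, 833 genes were called, 529 of them higher and 304 lower. Of the other lists, S phase genes had 1 call in the report, 2 with a mean of at least 1 and with voom, 0 as deposited, with the own total, with a pseudocount of 0.01, with no filter, without the trend, with the block and with the close pairs averaged, and 0 to 3 with 1 library left out. Activation and turnover had 0 calls as deposited, with the block and with the close pairs averaged, and 0 to 4 with 1 library left out. The other CDK inhibitors had 0 with the close pairs averaged. Pocket proteins and E2F factors had 0 to 1, G2 and M phase genes 0 to 2 and other cyclins and CDKs 1 to 2 with 1 library left out. The causes of these moves were not tested.

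Deviations from the group mean of libraries with the same replicate number in both genotypes had correlations of -0.095, -0.088 and 0.036. The libraries outside the close pairs, the second *Znf143 f/f* and the first *Znf143-/-*, bear different numbers. These correlations therefore cannot decide whether equal numbers mark littermate pairs. The numbers were not taken as pairs. With the replicate block 191 genes were called, 189 of them among the 1154.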

Other observations

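Of the 24 other cyclins and CDKs, those of transcription and of unclear roles among them, *Cdk5* fell. *Cdk5*, best known as a kinase of neurons, was at 16.9, 16.7 and 14.96 rescaled FPKM in *Znf143 f/f* and at 2.43, 3.39 and 3.24 in *Znf143-/-* libraries. The groups were far apart, at a log2 fold change of -2.40 ± 0.14 (SE, limma adjusted p = 0.000725), and the call was the only one in the 7 cell cycle lists that held with the close pairs averaged (adjusted p = 0.0271). The other 23 genes did not pass, and the median log2 fold change of the list was -0.08 (less that of all genes, -0.11 to -0.04 with 1 library left out).

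The genes whose mean-centred log2 profile over the 6 libraries lay closest to that of *Ccne1*, among 12545 genes with a mean rescaled FPKM of at least 1, were *Mb21d1*, *Cox18* and *Slc25a20*. Their root mean square distances from *Ccne1* were 0.0407, 0.0413 and 0.0414 on the log2 scale. *Mb21d1*, the cytosolic DNA sensor cGAS, had a mean of 3.53 rescaled FPKM in *Znf143 f/f* and 5.50 in *Znf143-/-* libraries. *Cox18*, an insertion factor of the mitochondrial inner membrane, had means of 18.7 and 30.3, and *Slc25a20*, the carnitine-acylcarnitine carrier, 13.8 and 21.01. The likeness is a description of 6 libraries.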
